A study of Mus musculus with 6 samples.

Results

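The genes described here are the replication-dependent histone genes, taken from the deposited gene table by symbol (names starting with Hist1h to Hist4h, H1f1 to H1f5, and the numbered H2ac, H2bc, H3c and H4c genes). The rule found 63 of the 26969 genes in the table: 5 for the linker histone H1, 17 for H2A, 17 for H2B, 12 for H3 and 12 for H4. Of these, 54 lie on chromosome 13 and 9 on chromosome 3 (positions on GRCm38, as the table gives them). The GENCODE M21 annotation calls 61 of them protein-coding and 2 pseudogenes (H2ac14 and Hist1h2al). A few related genes carry names outside the rule, among them H2aw on chromosome 11, which stood at 3.08 to 5.08 FPKM (fragments per kilobase of model, corrected for library depth), and the testis linker histone gene H1f6, which had 4 counts in 1 library and none in the other 5.

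The data are 6 poly(A) mRNA libraries of chondrocytes, the matrix-building cells of cartilage, from wild-type mice, in 2 groups of 3. In the description field one group is mAC and the other mAC_Mito, and the columns of the table use these names. Title and treatment fields say the reverse: they give vehicle for the libraries described as mAC_Mito and mitochondria for those described as mAC. Both versions split the libraries the same way, so differences are given as mAC_Mito minus mAC and no direction is tied to mitochondria, which the series title traces to osteocytes. The labels name no age or sex, and do not tell whether replicates were separate cultures or animals. P-values therefore measure the spread between these libraries, which may be technical. Total counts were 59116068 to 68378213 per library. All 13 chondrocyte markers checked averaged at least 1 FPKM, led by Col2a1 at 1254 FPKM. Markers of other cells were present too: the summed level of 12 macrophage and leukocyte markers was 68.6 to 85.1 FPKM in mAC and 75.5 to 121.7 FPKM in mAC_Mito, that of 8 adipocyte markers 68.02 to 108.6 and 93.01 to 113.5 FPKM, and that of 10 skeletal muscle markers 39.5 to 73.6 and 61.6 to 68.99 FPKM. Single genes led these sums: Lyz2 averaged 66.95 FPKM, Fabp4 45.1 FPKM and Mylpf 22.02 FPKM. At least 1 FPKM was reached by 6 of the 12, 7 of the 8 and 6 of the 10 markers. The part of other cells in the values below was not tested.

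Replication-dependent histone genes supply the proteins that package newly made DNA. An octamer of H2A, H2B, H3 and H4 forms the nucleosome core, and H1 binds the linker DNA between cores. Most of their transcripts are made in S phase, have no introns, and end not in a poly(A) tail but just after a short hairpin, the stem-loop, which is bound by the stem-loop binding protein and cut by a machinery that includes the U7 small nuclear RNA. Capture on oligo-dT, as used for these libraries, retains RNA with a poly(A) tail. Some of these genes also give longer, polyadenylated transcripts, above all in cells that leave the cell cycle and differentiate. What follows is therefore the poly(A) fraction of histone RNA, not its total.

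The stem-loop is shown first because it separates the annotated transcripts. The search used the letters GGNNCTNNNNAGNNCC with a perfectly paired stem of 6 bases and a loop of 4, on the strand of the transcript. It was found after the coding region in 40 of the 63 genes, against 0.929% of 21951 protein-coding genes with it anywhere in a transcript. In the 40 genes it lay 24 to 61 bases after the last coding base. That distance includes the stop codon, as do the lengths after the coding region given below. These 40 carried 8 distinct sequences, of which one was shared by 22 genes. One gene stands for each sequence below, with the stem-loop in capitals and the flanking bases in lower case, 5′ to 3′, from GENCODE M21 transcripts of GRCm38.
H1f2: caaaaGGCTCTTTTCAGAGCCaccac
H4c8: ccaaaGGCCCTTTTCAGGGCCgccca
H3c3: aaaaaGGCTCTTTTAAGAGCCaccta
H4c9: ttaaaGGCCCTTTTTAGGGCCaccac
H4c11: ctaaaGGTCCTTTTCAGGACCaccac
H4c1: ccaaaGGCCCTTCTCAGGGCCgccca
H3c8: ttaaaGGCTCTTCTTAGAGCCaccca
H2ac20: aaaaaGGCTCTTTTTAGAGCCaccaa
The sequence printed for H1f2 was the one shared by 22 genes of the H1, H2A, H2B and H3 classes, and it is also that of H2bc8, H3c14, H3c15 and H2ac18. All 11 stem-loops of H4 genes had a stem that no other class carried. The printed hairpin of H4c8 was present in 6 genes, that of H3c3 in 5, those of H4c9 and H4c11 in 2 each, and those of H4c1, H3c8 and H2ac20 in 1 each.

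Poly(A) histone RNA in these chondrocytes came mainly from 2 genes, H1f2 and H2bc4. H1f2 encodes a linker histone of somatic cells. Its level was 46.7, 68.5 and 86.1 FPKM in mAC and 57.7, 72.8 and 70.4 FPKM in mAC_Mito, values being given in the order of replicates 1, 2 and 3. H2bc4 encodes an H2B core histone, and its level was 42.8, 45.8 and 46.4 FPKM in mAC and 45.4, 39.5 and 41.6 FPKM in mAC_Mito. The lowest and highest libraries differed by 1.84-fold for H1f2 and by 1.17-fold for H2bc4, and for both genes the groups overlapped. By mean FPKM, H1f2 ranked 628 and H2bc4 ranked 1006 among all genes of the table.

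In counts, H1f2 held 55.2% and H2bc4 26.7% of all counts on the 63 genes, and the other 61 genes together held 18.1%. All 63 summed to 0.0183%, 0.0227% and 0.0254% of the library in mAC and 0.0211%, 0.0219% and 0.0217% in mAC_Mito, so that the lowest and the highest share were both in mAC. The mean was 0.0221% ± 0.00362 (SD, n = 3) in mAC and 0.0216% ± 0.000401 in mAC_Mito. Without H1f2 the sum was 0.00957%, 0.0103% and 0.0101% in mAC and 0.0103%, 0.00909% and 0.00929% in mAC_Mito, a narrower range.

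**Figure D1:**
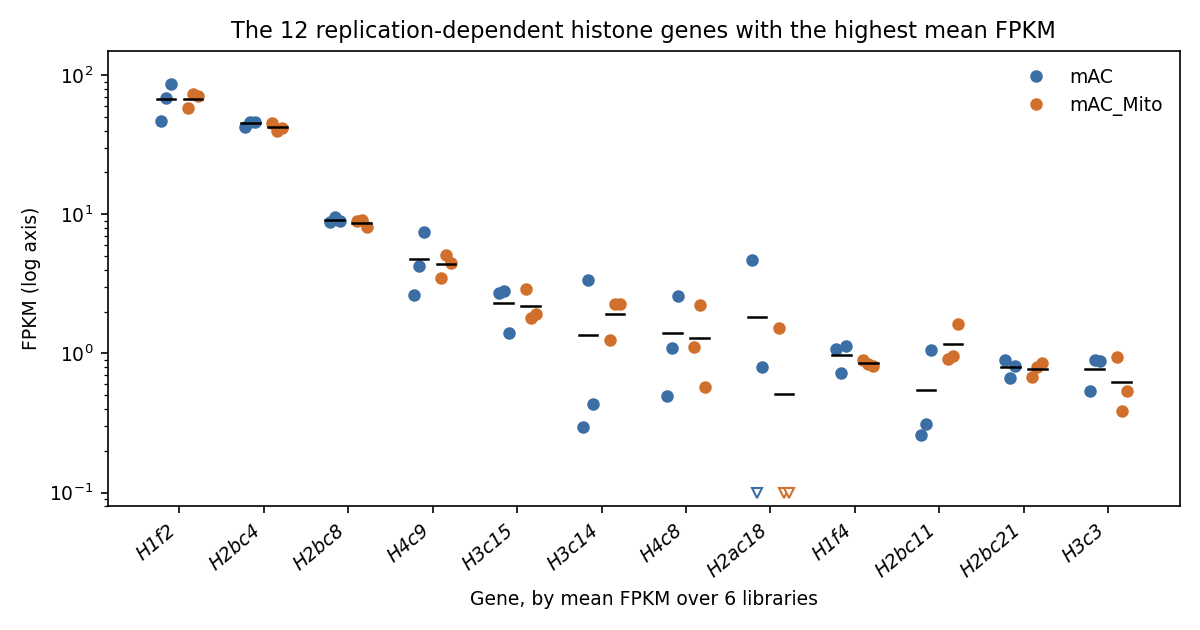
FPKM (log axis) of the 12 replication-dependent histone genes with the highest mean, per library, with mAC in blue and mAC_Mito in orange; bars are group means and open triangles mark a value of 0, drawn at the axis foot. H1f2 and H2bc4 stand near 67.0 and 43.6 FPKM, and the groups overlap in all 12.

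Below these genes the levels fell steeply. H2bc8, an H2B gene, was at 8.87, 9.58 and 8.95 FPKM in mAC and 8.89, 9.18 and 8.07 FPKM in mAC_Mito, a 1.19-fold range. H4c9, an H4 gene, was at 2.61, 4.22 and 7.48 FPKM in mAC and 3.51, 5.14 and 4.46 FPKM in mAC_Mito, with both extremes in mAC. Only 8 of the 63 averaged at least 1 FPKM, and 51 stayed under 1 FPKM in every library. The median of the 63 means was 0.314 FPKM, against 0.468 FPKM over all genes of the table and 2.73 FPKM over the genes tested. Every one of the 63 had at least 1 count in some library, and 46 had a count in all 6.

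The H1 class was nearly a single gene. H1f2 made up 95.8% of its counts. Its 4 other members averaged 0.0889 to 0.913 FPKM, H1f4 highest and H1f1 lowest. H1f4 was at 1.08, 0.729 and 1.12 FPKM in mAC and 0.896, 0.842 and 0.807 FPKM in mAC_Mito. The H1f4 model shares 25.7% of its length with same-strand exons of Gm11398 and of H2bc6, a gene with an exon reaching into H1f4, so part of these counts cannot be placed.

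The H2B class held 33.8% of the counts on the 63 genes, of which H2bc4 made up 79.1%. After H2bc4 and H2bc8 the 15 other members averaged 0.0252 to 0.853 FPKM. H2bc11 was at 0.259, 0.309 and 1.06 FPKM in mAC and 0.9097, 0.953 and 1.62 FPKM in mAC_Mito. H2bc21, the H2B gene of the chromosome 3 cluster with a long 3′ region, was at 0.902, 0.669 and 0.809 FPKM in mAC and 0.673, 0.802 and 0.853 FPKM in mAC_Mito. The 2 groups cover nearly the same range for H2bc21 and overlap for H2bc11. H2bc1, a testis H2B gene, had 0 to 4 counts per library.

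The H2A class, with as many genes as the H2B class, held 1.57% of the counts. Apart from H2ac18, described below, its 16 members averaged 0.00813 to 0.512 FPKM, with H2ac11 highest. All 17 H2A genes overlap an exon annotated on the opposite strand. Whether the counting used strand is not given in the sources used here, and antisense reads may be among their counts.

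The H3 and H4 classes held 4.12% and 2.87% of the counts. In the H4 class H4c9 made up 61.2%. H4c8 was at 0.498, 1.097 and 2.58 FPKM in mAC and 1.11, 2.21 and 0.5701 FPKM in mAC_Mito, a 5.19-fold range with no separation of the groups. H4c12 was the next highest, and the 10 H4 genes under 1 FPKM averaged 0.0224 to 0.674 FPKM. In the H3 class only H3c14 and H3c15 of the chromosome 3 cluster averaged over 1 FPKM, and the 10 others averaged 0.18 to 0.698 FPKM. H3c3, the highest of those, was at 0.538, 0.894 and 0.885 FPKM in mAC and 0.943, 0.388 and 0.538 FPKM in mAC_Mito. Chromosome 13 carried 95.6% of all counts on the 63 genes and chromosome 3 carried 4.42%.

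Annotated transcript ends were then set beside these levels, using 1 representative transcript per gene from GENCODE M21. In 21 genes the transcript stops within 100 bases of the stem-loop, in 19 it runs at least 100 bases past it, and in 23 it holds no stem-loop by this search. Most of these 23 models end 3 to 5 bases after the last coding base, as in H1f5 and H2ac12. The stem-loops found lay at least 24 bases after it, so such models are too short to hold one. Their lack of a stem-loop describes the annotation and not the gene. The 21 genes that stop at the stem-loop held 2.45% of the counts and none averaged over 1.35 FPKM. The 19 genes that run past it held 68.2%, of which H1f2 was the bulk. The 23 without a stem-loop held 29.3%, of which H2bc4 was the bulk. The median levels were 0.333 FPKM for genes that stop at the stem-loop, 0.365 FPKM for those that run past it and 0.18 FPKM for those without one. In a cut by length, 22 genes with at least 200 annotated bases after the coding region held 96.6% of the counts, and 41 with fewer held 3.40%. H1f2 and H2bc4 are both among the 22 and were the bulk of that 96.6%. The median levels of the 22 and the 41 were 0.414 and 0.239 FPKM. Longer models collect more reads at the same level, so the shares of counts are not per length.

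H1f2, at chr13:23738808-23740367 on the plus strand, has a single exon of 1560 bases that runs 840 bases past its stem-loop, with AATAAA starting 26 bases before the end. H2bc4, at chr13:23684199-23692908 on the plus strand, is represented by a spliced transcript of 2 exons and 1156 bases with no stem-loop and with neither AATAAA nor ATTAAA in its last 40 bases. H2bc8 runs 155 bases past the stem-loop without such a signal, and H4c9 runs 330 bases past it with ATTAAA 21 bases before the end. In all, 13 genes had 1 of these signals in the last 40 bases, and they held 62.3% of the counts, with 55.2% on H1f2 alone. An annotated signal did not go with a high level in most of them: the median of the 13 was 0.365 FPKM, and H2bc21, with 2195 bases after the coding region and AATAAA near its end, averaged 0.785 FPKM. The annotation is not a measurement of where the transcripts in these cells end.

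**Figure D2:**
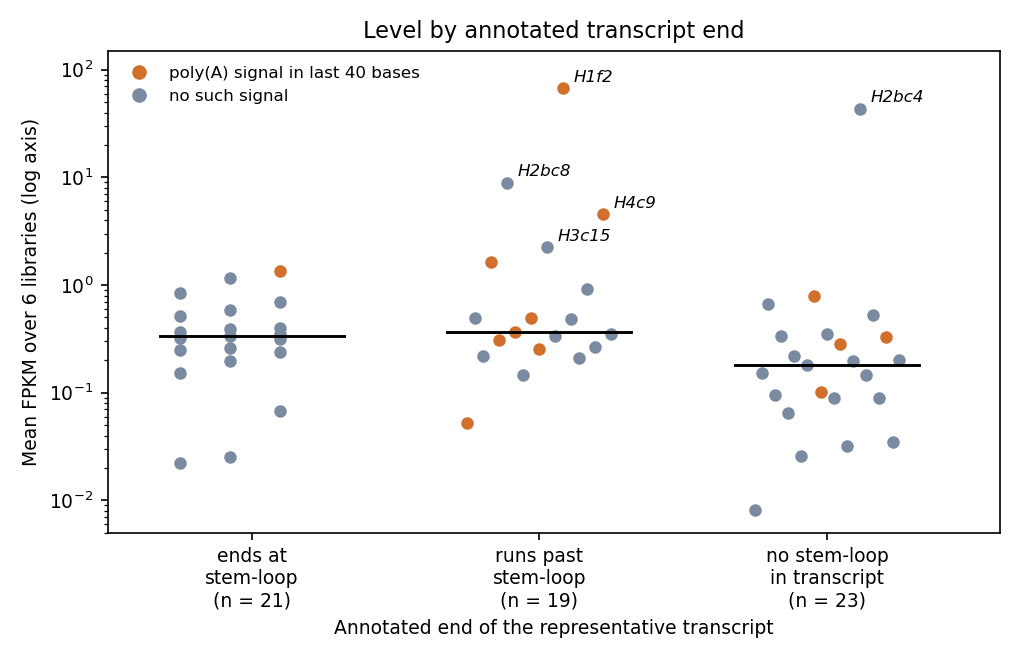
Mean FPKM over 6 libraries (log axis) of the 63 genes by the annotated end of the representative transcript; each point is a gene, orange where AATAAA or ATTAAA lies in the last 40 bases, and bars are medians (0.333, 0.365 and 0.18 FPKM). The genes above 2 FPKM are named, and none of them ends at the stem-loop.

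H2A and H2B genes often lie head to head and share the short stretch between their start sites. The table holds 12 such pairs, with gaps of 175 to 301 bases. In 4 pairs the H2B gene was higher in all 6 libraries, and in none was the H2A gene higher in all 6. The widest difference was at H2ac6 and H2bc4, with a gap of 250 bases. H2ac6 was at 0.186, 0.303 and 0.305 FPKM in mAC and 0.249, 0.234 and 0.331 FPKM in mAC_Mito, whereas H2bc4 stood at 39.5 to 46.4 FPKM, and the ratio of the means was 162.5. At H2ac8 and H2bc8, with a gap of 175 bases, H2ac8 was at 0.181, 0.3599 and 0.198 FPKM in mAC and 0.526, 0.287 and 0.305 FPKM in mAC_Mito, and the ratio of the means was 28.8. At H2ac20 and H2bc21, with a gap of 238 bases, H2ac20 had 0 counts in 3 libraries and 4 to 7 in the others. The fourth was H2ac15 and H2bc15, where H2bc15 was at 0.148 to 1.18 FPKM and H2ac15 had no count in 4 libraries. The pairs were singled out after their values were seen.

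**Figure D3:**
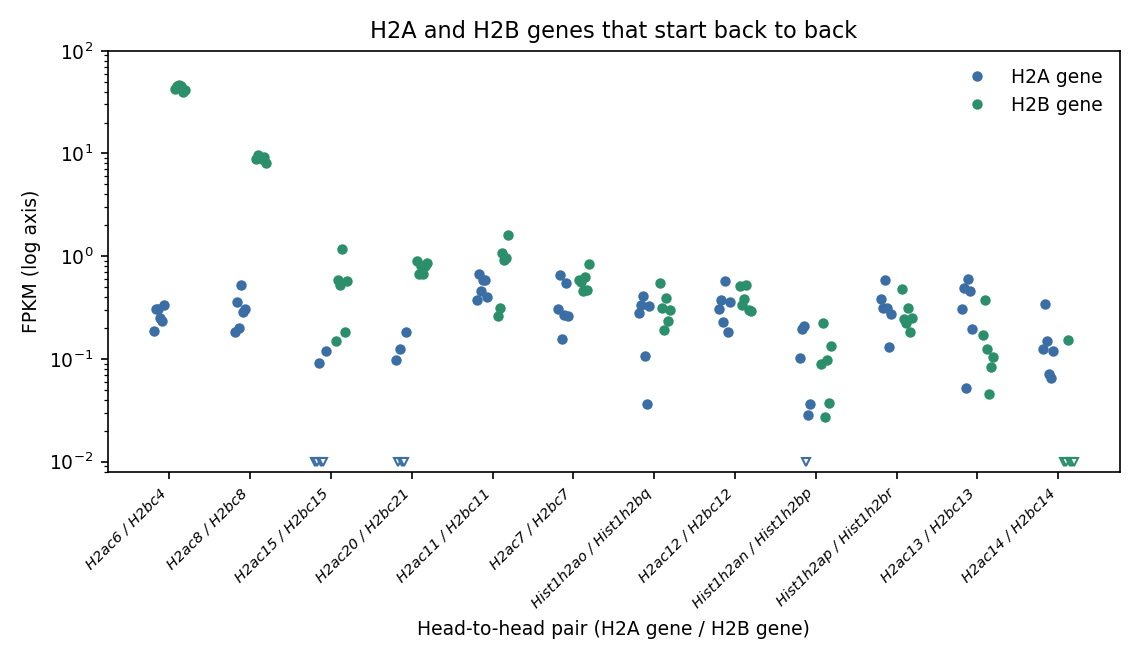
FPKM (log axis) of the H2A gene (blue) and the H2B gene (green) of 12 head-to-head pairs, 1 point per library, ordered by the ratio of the means; open triangles mark a value of 0, drawn at the axis foot. The pairs of H2bc4 and H2bc8 are 162.5 and 28.8 times apart, while the partners overlap in 8 of the 12 pairs.

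The shared stretches are printed because the partners on their 2 sides differ so widely, followed by the promoter of H1f2. Windows are from RefSeq on GRCm38.p6, 250 bases before to 50 after a gene's start, and 48 of the 63 genes had one. Capitals mark 4 motifs on either strand. These are the TATA box (TATAAA), the CCAAT box, a binding motif of OCT factors known as the octamer (ATTTGCAT), and a motif of linker histone promoters called the H1 box (AAACACA).
H2ac6 start, reading from H2bc4 (chr13:23683910-23684209, minus strand): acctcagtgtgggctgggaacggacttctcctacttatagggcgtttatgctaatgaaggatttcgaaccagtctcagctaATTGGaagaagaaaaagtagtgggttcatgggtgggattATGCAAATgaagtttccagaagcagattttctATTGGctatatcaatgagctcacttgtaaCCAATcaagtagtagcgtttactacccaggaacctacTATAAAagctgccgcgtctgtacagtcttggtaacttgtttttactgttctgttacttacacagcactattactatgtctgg
H2bc8 start, reading from H2ac8 (chr13:23571150-23571449, plus strand): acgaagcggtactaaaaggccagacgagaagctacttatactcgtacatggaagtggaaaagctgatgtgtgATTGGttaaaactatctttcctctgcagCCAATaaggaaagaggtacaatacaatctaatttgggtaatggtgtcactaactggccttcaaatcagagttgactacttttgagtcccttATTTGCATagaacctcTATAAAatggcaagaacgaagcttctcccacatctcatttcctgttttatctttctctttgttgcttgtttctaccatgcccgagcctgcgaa
H1f2 start (chr13:23738557-23738856, plus strand): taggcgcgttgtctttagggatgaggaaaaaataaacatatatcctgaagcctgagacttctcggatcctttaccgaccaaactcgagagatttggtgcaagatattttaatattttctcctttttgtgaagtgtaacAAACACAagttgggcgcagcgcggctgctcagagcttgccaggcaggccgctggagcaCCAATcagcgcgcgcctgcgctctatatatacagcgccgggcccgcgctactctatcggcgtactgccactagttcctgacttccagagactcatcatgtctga
The window of H2ac6 spans the whole gap to H2bc4. It holds TATAAA on the side of H2ac6, 3 CCAAT motifs in either direction and 1 octamer. The window of H2bc8 spans the gap to H2ac8 and holds TATAAA, 2 CCAAT motifs and 1 octamer. The H1f2 window holds the H1 box and 1 CCAAT, and TATAAA is not among its letters. Over the 48 windows CCAAT was present in 42, against 37.4% of 32851 windows of all genes, and the 6 windows without it were all among the 9 H4 windows. TATAAA was present in 29, against 13.6%. The octamer was present in 11, of which 5 were H2A and 6 H2B windows, against 1.74%. The H1 box was present in 7, of which 4 were among the 5 H1 windows, against 7.18%. A match of letters is a description and not a site.

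Several genes on chromosome 3 call for a separate account, since their models overlap other genes or have near-identical copies. This does not hold for H2bc21 and H4c14, which share no stretch of 100 bases with another gene and overlap no other exon. H3c14 (chr3:96246685-96248509, plus strand) lies wholly within the exons of the same-strand transcript Gm20634 (chr3:96245554-96248509). H2ac18 (chr3:96245497-96246082, plus strand) shares 90.3% of its length with Gm20634 and all of it with genes on the opposite strand, Gm20633 among them. Every stretch of 100 bases in H3c14 and in H2ac18 also occurs in another gene, and 61.6% of those in H3c15 do. Copies of these genes that are not in the table were not analysed here. Shared sequence is not limited to chromosome 3. Of all the histone genes described, 28 shared over 50% of their 100-base stretches with other genes and 11 under 10% (median 40.1%). On chromosome 13 the share was 100% in Hist1h2bq, 92.7% in Hist1h2ao, 92.0% in H3c10, 88.1% in Hist1h4m and 44.9% in H2bc8. It was 25.4% in H2bc4 and 5.07% in H1f2. How far reads from shared stretches set the levels of single genes was not tested.

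H3c14 had 39, 485 and 57 counts in mAC and 175, 280 and 286 in mAC_Mito, a 12.4-fold range. Gm20634 had 714, 372 and 991 counts in mAC and 886, 284 and 526 in mAC_Mito, and was lowest in mAC_Mito 2 and mAC 2, in which H3c14 had 280 and 485. H2ac18 had 195, 0 and 34 counts in mAC and 68, 0 and 0 in mAC_Mito. In CPM, counts scaled to a common library total, a count of 0 allows a level of up to 0.0439 in mAC 2, 0.0499 CPM in mAC_Mito 2 and 0.0489 CPM in mAC_Mito 3 (3 counts per library, counting error only). Gm20633 had 281, 573 and 110 counts in mAC and 277, 653 and 434 in mAC_Mito.

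The sum of these 4 genes varied far less than its parts. It was 20.8, 20.9 and 19.1 CPM in mAC and 22.1, 20.2 and 20.3 CPM in mAC_Mito, a 1.16-fold range, while the share of H3c14 in the counts of H3c14 and Gm20634 went from 5.18% to 56.6%. The combination was chosen after the values were seen. How the counting divided reads among overlapping and identical models is not given in the sources used here, and its part in the single values was not tested. H3c15 (chr3:96238108-96239127, minus strand), the near copy of H3c14, had 197, 226 and 102 counts in mAC and 228, 124 and 136 in mAC_Mito.

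**Figure D4:**
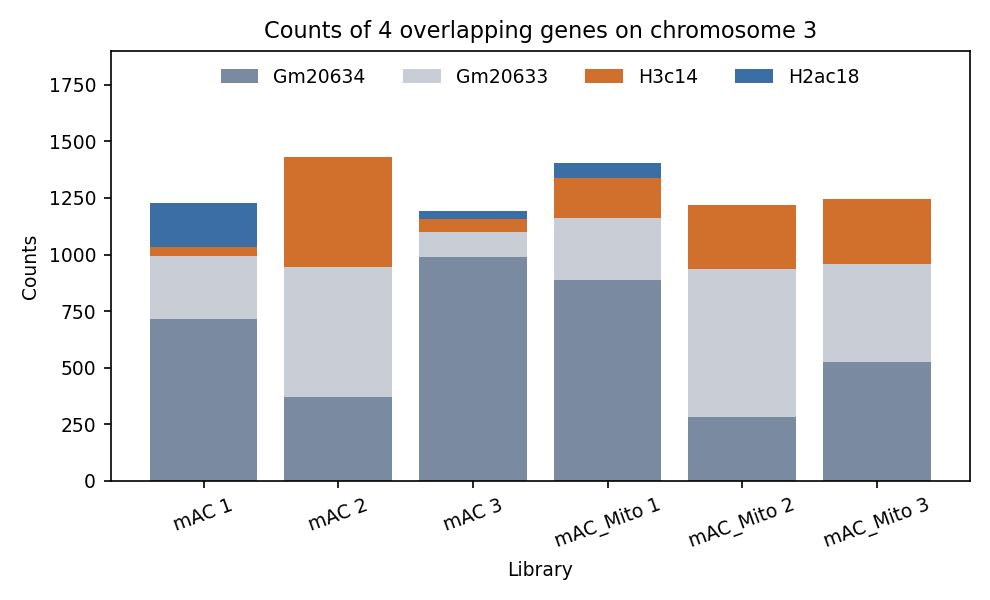
Counts per library of H3c14, H2ac18 and the 2 non-coding genes whose exons overlap them on chromosome 3, stacked from 0. The totals lie between 1192 and 1430 counts, while the H3c14 portion runs from 39 to 485.

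The group comparison asks whether poly(A) histone transcripts differed between mAC_Mito and mAC. Of the 63 genes, 41 had enough counts to be tested in a fit of the whole table (edgeR quasi-likelihood test, two-sided, Benjamini-Hochberg adjustment over 17645 genes). The 22 others averaged at most 11.3 counts. None of the 41 passed an adjusted p of 0.05, at which 0.0113% of all genes tested were called, and the smallest adjusted p among the 41 was 0.9999. DESeq2 and limma on FPKM called none either. At an unadjusted p under 0.05 edgeR gave 2 of the 41 (4.88%), against 3.19% of all genes. DESeq2 gave 2 of the 41, against 3.44% of all genes, and limma on log2(FPKM + 1) gave 4 (9.76%), against 3.02%.

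The 2 genes at an unadjusted p under 0.05 in edgeR were H1f3 and H4c1, and neither passed after adjustment. H1f3, a linker histone gene whose annotated transcript of 7425 bases runs 4884 bases past its stem-loop, was at 0.211, 0.297 and 0.319 FPKM in mAC and 0.427, 0.4396 and 0.392 FPKM in mAC_Mito. The 3 mAC_Mito values lie above the 3 mAC values. Its log2 fold change was 0.59 ± 0.21 (SE; 95% interval 0.13 to 1.05; edgeR adjusted p = 0.9999). H4c1 had 5, 0 and 10 counts in mAC and 18, 17 and 37 in mAC_Mito, and its log2 fold change was 2.25 ± 0.94 (SE; 95% interval 0.15 to 4.35; edgeR adjusted p = 0.9999).

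Groups did not overlap, in CPM, in 3 genes higher in mAC_Mito (H1f3, H4c1 and H3c6) and 2 lower (H2bc6 and H4c11). Over all genes tested 3.93% were higher without overlap and 4.38% lower, and 3 and 2 of 41 are 7.32% and 4.88%. H3c6, H2bc6 and H4c11 are named because of these values. H2bc6 was at 0.502, 0.566 and 0.631 FPKM in mAC and 0.465, 0.469 and 0.349 FPKM in mAC_Mito. H3c6 and H4c11 had 8 to 34 and 7 to 31 counts per library.

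For the 2 abundant genes the intervals were narrow. The log2 fold change was -0.01 ± 0.16 (SE; 95% interval -0.38 to 0.36) for H1f2 and -0.11 ± 0.10 (SE; -0.34 to 0.12) for H2bc4. For H2bc8 it was -0.09 ± 0.15 (SE; -0.42 to 0.24). A 2-fold difference, 1 on the log2 scale, lies outside the interval in 10 of the 41 genes. The intervals of the other 31 include it, so a change of that size is not excluded there. Of the 41, 18 had a fold change above 0 and 23 below, with a median of -0.09, beside 0.00 over all genes. The sign of that median was not stable: it was 0.03 with limma on log2(FPKM + 0.1) and 0.01 to 0.02 when any 1 mAC library was left out. The filter was rerun for each library left out, so the latter medians cover 44 or 45 genes and not the same 41. The class medians were -0.12 for H1 (4 genes), 0.03 for H2A (9), -0.11 for H2B (11), 0.33 for H3 (8) and -0.13 for H4 (9).

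**Figure D5:**
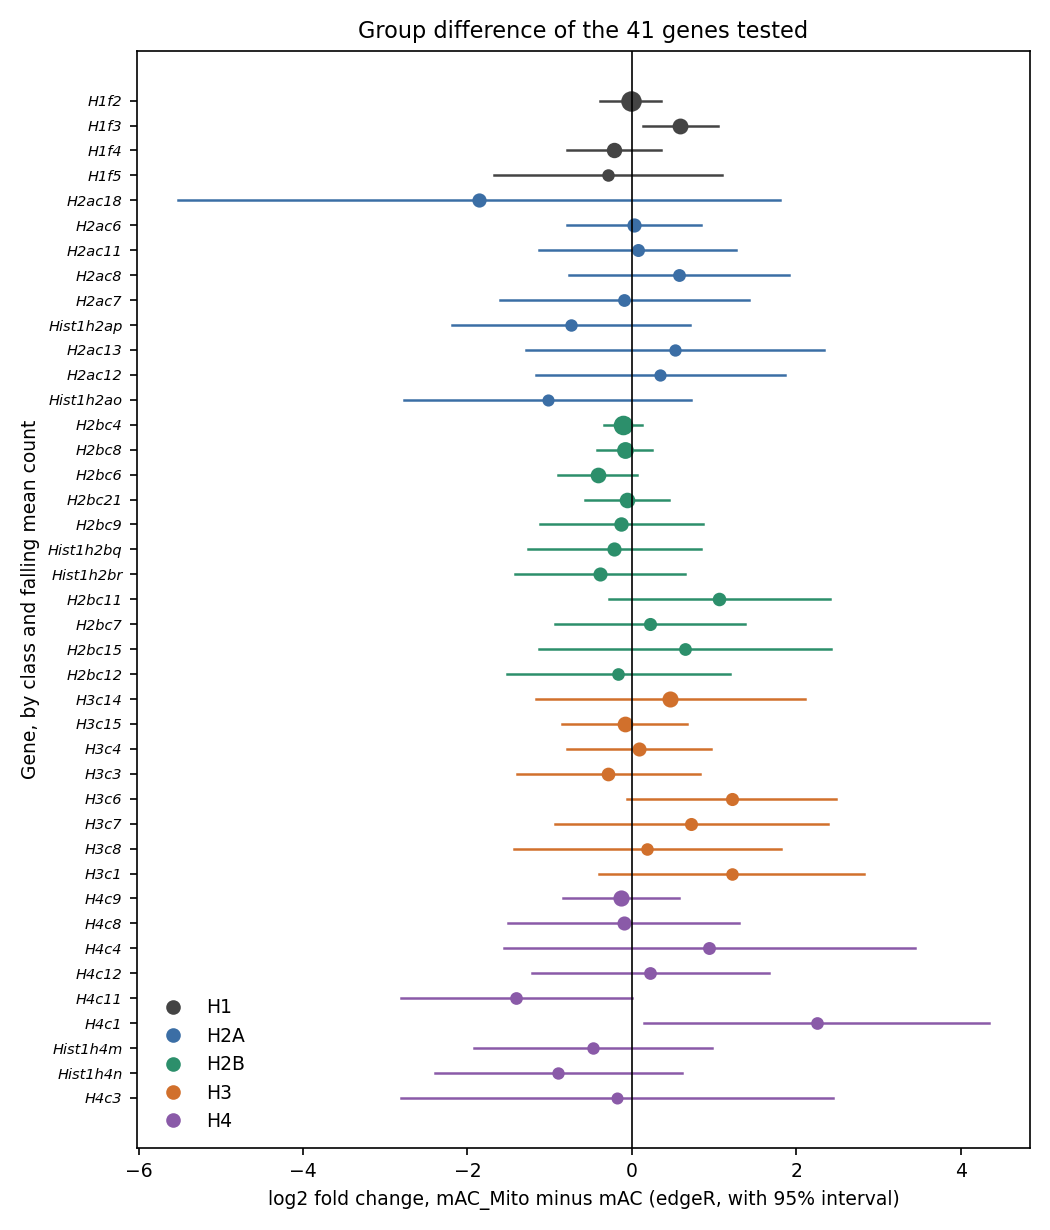
Log2 fold change (mAC_Mito minus mAC, edgeR) of the 41 genes tested, with 95% intervals as lines, grouped by histone class and ordered by falling mean count; point size grows with the count. The interval lies above 0 for H1f3 and H4c1, and spans 0 for the 39 others.

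The differences among libraries were larger than those between groups for H1f2 and H4c9. Both genes put the libraries in the same order by FPKM, from mAC 1 (lowest) through mAC_Mito 1, mAC 2, mAC_Mito 3 and mAC_Mito 2 to mAC 3 (highest). This order is not particular to them. Among the replication-independent histone variants described below, H3f3a and H3f3b had it too, and the others did not have it exactly. The share of counts on the 13 mitochondrially encoded mRNAs was 7.31%, 4.71% and 3.13% in mAC and 5.60%, 2.91% and 3.40% in mAC_Mito, nearly the reverse order. Across the 6 libraries Pearson's r between this share and log2 CPM was -0.91 for H1f2 (exact permutation p = 0.00694, adjusted 0.0694; Spearman's rho -0.94, exact p = 0.0167, adjusted 0.0833) and -0.86 for H4c9 (exact permutation p = 0.0222, adjusted 0.102; rho -0.94, exact p = 0.0167, adjusted 0.0833). The adjustment is over the 10 genes with a mean count of at least 100, and no relation passed it. Without the 2 libraries farthest from the median share, mAC 1 and mAC_Mito 1, r was -0.44 for H1f2 and -0.55 for H4c9. The remaining libraries span a narrower range of the share, so the smaller r cannot decide how far the relations rest on those 2. Within mAC and within mAC_Mito the 3 libraries kept the reverse order for both genes. H3c15 and H2bc4 had rho of 0.89 each (exact permutation p = 0.0333, adjusted 0.0833). This share was chosen after the values were seen, and its part in the levels was not tested.

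The machinery that makes histone mRNA was measured as well, and no gene of these companion lists passed adjustment. Slbp, the stem-loop binding protein gene, was at 8.35, 8.399 and 9.49 FPKM in mAC and 7.905, 8.38 and 8.45 FPKM in mAC_Mito. Lsm10 and Lsm11, parts of the U7 particle, were at 9.96 to 14.7 and 0.865 to 1.28 FPKM, and Zfp473, which also takes part in cleavage, at 0.0485 to 0.104 FPKM. Casp8ap2, needed for histone expression in S phase, was at 2.66 to 3.32 FPKM. Of 28 genes of 3′ end processing and decay tested, 14 had a log2 fold change above 0 and 14 below (median -0.0013). Sympk, a scaffold of the cleavage machinery, had the smallest p of that list and a log2 fold change of 0.19 ± 0.09 (SE).

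Npat, the coactivator of histone gene transcription, was at 5.15 to 6.45 FPKM. Of 17 transcription genes 8 lay above 0 and 9 below. Ccne1, the cyclin whose kinase activates Npat, was at 12.97, 13.7 and 12.8 FPKM in mAC and 10.6, 10.04 and 10.96 FPKM in mAC_Mito, with no overlap (log2 fold change -0.35 ± 0.10, SE; edgeR adjusted p = 0.9999). Among 24 chaperones, 16 lay below 0 (median -0.04). Nasp, which binds H1 and H3-H4, was at 9.52 to 11.9 FPKM, and Chaf1a, of the assembly factor CAF-1, at 3.68 to 5.41 FPKM. Hat1, which acetylates new H4, had the smallest p of the list and a log2 fold change of -0.24 ± 0.10 (SE).

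Of the 12 replication-independent histone variants in the table, whose transcripts are polyadenylated as a rule, 11 had a mean FPKM above that of at least 60 of the 63 genes. H1f8, the oocyte linker histone, was the exception, at 0 FPKM in 5 libraries. H3f3b was at 112.3 to 154.2 FPKM, H3f3a at 69.6 to 120.2, H2az1 at 92.04 to 148.4, H1f0, a linker histone of quiescent cells, at 58.2 to 82.7, and H2ax at 28.5 to 36.6. Cenpa, the centromere H3 variant, was at 6.13 to 9.38 FPKM. Of 11 variants tested 6 lay above 0 and 5 below (median 0.03), and none had an unadjusted p under 0.05 in edgeR.

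Cell cycle genes are the background against which S-phase histone transcripts are usually read. Pcna, the replication clamp, was at 65.4, 68.8 and 77.7 FPKM in mAC and 62.6, 67.1 and 64.9 FPKM in mAC_Mito. Of 41 genes of DNA replication 34 lay below 0 (median -0.10), and 4 had an unadjusted p under 0.05 in edgeR, against 3.19% of all genes. Of 28 genes of G2/M and mitosis 27 lay below 0 (median -0.25). Of the 28, 14 had an unadjusted p under 0.05 in edgeR, against 3.19% of all genes, with none passing after adjustment. Ect2, needed for cytokinesis, had the smallest p and a log2 fold change of -0.36 ± 0.09 (SE). Mki67, a marker of cycling cells, was at 12.8 to 18.3 FPKM and overlapped between groups. No gene of either list passed adjustment, so a lower level in mAC_Mito was not established. Fewer cycling cells and less RNA per cell could in any case not be told apart in bulk libraries.

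RNAs without a poly(A) tail were looked at for carry-over. Of 33 such RNAs listed, 21 are in the table and 4 had enough counts to be tested (3 below 0 and 1 above). Rn7s2 was at 1.98 to 7.85 FPKM, Rn7sk at 0.706 to 1.604 FPKM, Rmrp at 0 to 0.4099 FPKM and Terc at 0 to 0.124 FPKM. Of the 21, 6 had a mean above the median of 0.314 FPKM of the 63 histone genes and 15 a mean below it, and the median over the 21 was 0.133 FPKM. Whether the low histone counts come from tailed RNA was not tested. The 15 genes of poly(A) polymerases and binding proteins (median -0.04) and 15 of differentiation-linked cell cycle exit (median -0.03) held no gene with an unadjusted p under 0.05, Zc3h14 and Cdkn2a having the smallest. Of the marker lists, chondrocyte genes split 8 above and 5 below 0. Macrophage and leukocyte genes split 9 and 2, skeletal muscle genes 7 and 2, endothelial genes 5 and 1, and osteoblast and osteocyte genes 4 and 1, with Acan, Itgam, Acta1, Tek and Ibsp having the smallest p in turn. All 8 adipocyte genes lay above 0, among them Lpl at 9.86 to 12.9 FPKM in mAC and 13.2 to 15.1 FPKM in mAC_Mito. The 1 testis gene tested, Ddx4, lay below 0 and no erythroid gene was tested.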

How the data were processed

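Poly(A) mRNA of 6 mouse chondrocyte libraries was sequenced in paired ends. The deposited table gives whole-number read counts per gene without normalization, per the file headers, and FPKM computed by the authors, per the file headers. HISAT2 2.0, StringTie 1.3.0 and Bowtie 0.12.2 are listed, per the submitters' processing notes, without their roles, and a build older than the GRCm38 coordinates in the table; all 63 genes have the same coordinates in GENCODE M21. How reads were counted, with or without strand and when they matched more than one gene, is not given in the sources used here.

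Counts were fitted with edgeR 4.0.16 (R 4.3.3; filterByExpr with minimum count 10 and minimum total 15, TMM scaling, quasi-likelihood test, two-sided, Benjamini-Hochberg over 17645 genes, threshold 0.05). Standard errors and 95% intervals follow from its F statistic. The fit was tested on simulated counts with known changes. Alternatives were DESeq2 1.42.0, limma 3.58.1 on log2 FPKM, other scalings and filters, a replicate block and leaving out each library. Exact permutation tests are two-sided (scipy 1.17.1). Libraries held 59116068 to 68378213 counts, and no 2 libraries agreed within sampling noise (chi-square per degree of freedom of 22.1 or more). Stem-loops and poly(A) signals were searched in the first listed protein-coding transcript of each gene, and shared sequence was judged by words of 100 bases.

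Genes named are the 12 with the highest mean FPKM, the member with the highest mean count of each class and cluster, those with an unadjusted p under 0.05, a few set by name, and, of each companion list, set genes and the one with the smallest p. The members, lists and rules were chosen with earlier results of these data known.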

Additional observations from a re-analysis of the deposited data

How the results depend on the processing

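None of the histone genes and no gene of the companion lists was called (adjusted p under 0.05) in any of the alternatives run. Over all genes the calls, 1 higher and 1 lower, became 2 and 2 with DESeq2, 0 and 0 with no filter beyond a count above 0, 0 and 0 with limma on log2(FPKM + 1), and 1 and 0 with limma on log2(FPKM + 0.1). Leaving out 1 library gave 0 to 3 higher and 0 to 1 lower: 0 and 0 without mAC_Mito 1 or mAC_Mito 3, and 3 and 1 without mAC 3 or mAC_Mito 2. The histone genes whose groups did not overlap, 3 higher and 2 lower, numbered 3 to 7 and 2 to 6 with 1 library left out (7 and 5 without mAC 2, 6 and 2 without mAC_Mito 2, 4 and 6 without mAC_Mito 1, 4 and 4 without mAC 3 or mAC_Mito 3), fewer libraries having to stay apart. Over all genes the shares were then 6.26% to 12.4% higher and 6.83% to 12.3% lower; for the histone genes they were 17.1% and 12.2% against 7.49% and 7.91% without mAC 2, and 14.6% higher against 7.87% without mAC_Mito 2. The median log2 fold change of the histone genes, -0.09, was -0.01295 and 0.03367 with limma on log2(FPKM + 1) and log2(FPKM + 0.1). With 1 library left out it was -0.04091 to 0.02222, over the 44 or 45 histone genes that then passed the filter. The cause was not tested. The log2 ratio of the summed shares, -0.04, was -0.16 to 0.08 with 1 library left out (above 0 without mAC 3). Replicate numbers did not pair the libraries (correlations of 0.12, -0.06 and -0.01, and 2 of 6 libraries closest to their own number). With the replicate block the calls stayed at 1 and 1, the median was 0.02254, and 4 histone genes (9.76%, against 3.02% of all genes) had an unadjusted p under 0.05. With limma on log2(FPKM + 0.1) 6 did (14.6%, against 3.59%). Of 623 values of 45 named genes under alternatives, 30 changed sign and none was called. H1f2 was at 0.17, H4c9 at 0.30 and H4c8 at 0.64 without mAC 3, and H2ac18 at 0.45 without mAC 1, on the log2 scale. Depth limits the 22 untested genes, which averaged at most 11.3 counts.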
